A study of Homo sapiens with 6 samples.

Results

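The 40 genes described here encode the core machinery of macroautophagy, and each was matched by its symbol to an Ensembl gene of the count table. All 40 were found among 61859 genes, and all 40 passed the filter on low counts, as did 16411 genes in all. RNA was measured by sequencing in IOMM-Lee, an established human cell line that the labels describe as malignant grade 3 meningioma, a neoplasm of the meninges. The hypoxia group was 3 biological replicates kept for 48 h in a workstation at 0.2% oxygen, and the normoxia group was 3 biological replicates labelled normoxic at the same time. Both groups were grown at the same temperature and carbon dioxide level in serum-containing medium, and the labels name no genetic change in either. The results therefore describe RNA levels in 1 cell line. The p-values set the difference between groups against the spread between these replicates, and do not cover the spread between cell lines or tumours.

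Macroautophagy encloses cytoplasm in a double membrane, the autophagosome, which then fuses with the lysosome. The ULK kinase complex starts the process, a phosphatidylinositol 3-kinase complex marks the membrane with the lipid PI3P, and ATG9, ATG2 and WIPI proteins bring and receive lipid. A ubiquitin-like conjugation system attaches small proteins of the ATG8 family (the LC3 and GABARAP proteins) to the membrane, where receptors such as p62 bind cargo. Low oxygen is a known stimulus of autophagy and mitophagy, and much of the control of these proteins lies in phosphorylation and turnover, which RNA counts do not measure.

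Total counts were 10619864 to 18447885 in the hypoxia libraries and 14685317 to 19554178 in the normoxia libraries. Levels are CPM, counts scaled to the library total and a TMM factor (trimmed mean of M values), and a floor of 3 counts was 0.181 to 0.316 CPM in hypoxia and 0.133 to 0.184 CPM in normoxia, for counting error only. Oxygen separated the libraries on the first principal component (80.9% of the variance). On the second (7.83%), hypoxia replicate 3 was set apart at 47.7, and hypoxia replicates 1 and 2 had scores of -27.2 and -20.1. The share of counts from mitochondrial genes was 2.05% to 3.05% in hypoxia and 6.42% to 7.29% in normoxia; its part in the scaled levels was not tested. Of the genes listed for meningioma, vimentin, desmoplakin, MUC1, S100A6 and NF2 were present in every library. Vimentin (6149 ± 930 CPM in hypoxia, 3052 ± 429 CPM in normoxia), desmoplakin (274 ± 24.2, 91.1 ± 2.40) and MUC1 (25.7 ± 3.75, 6.04 ± 0.818) were higher in hypoxia. NF2 was lower (79.2 ± 16.9 CPM in hypoxia, 238 ± 19.0 CPM in normoxia), and S100A6 overlapped between the groups. PTGDS, CDH1 and PGR were at or below the floor of 3 counts in all libraries. SSTR2, also listed, was lower, at 0.181 to 0.510 CPM in hypoxia and 0.642 to 1.15 CPM in normoxia. Its hypoxia libraries held 2, 5 and 3 counts, around the floor of 3 counts, so the size of this fall is uncertain. Summed markers of other cells were 1.69 to 4.94 CPM in hypoxia and 3.24 to 4.14 CPM in normoxia for 4 endothelial genes and 0.722 to 1.12 CPM in hypoxia and 0.245 to 0.876 CPM in normoxia for 4 leukocyte genes. For 5 glial and neural genes they were 11.7 to 14.0 CPM in hypoxia and 17.4 to 22.2 CPM in normoxia. In RNA from whole cultures, a change per cell and a change in the share of cells cannot be told apart.

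The autophagy genes moved in both directions within nearly every functional group. WDR45B, a PI3P-binding WIPI protein also called WIPI3, rose 8.18-fold, more than any of the other members, followed by ATG14, OPTN, ULK1 and ATG101. PIK3R4 and ULK2 fell at least 2-fold in hypoxia, and ATG2B, ATG4C, BECN1, ATG13, STX17 and ATG7 fell by less. Of the 40 genes, 29 passed the threshold (72.5%), against 62.2% of all tested genes (edgeR quasi-likelihood test, Benjamini-Hochberg adjusted p under 0.05 over all tested genes). They split into 17 higher (42.5%), against 31.2% of all genes, and 12 lower (30.0%), against 31.0% of all genes. Members and the lists below were chosen with earlier results of these data known, so such shares are descriptive and were not tested. At least 2-fold changes numbered 8 higher, where 16.3% of all genes passed, and 2 lower, where 17.7% did. The hypoxia and normoxia libraries did not overlap for 30 of the 40 genes (75.0%), against 67.9% of all genes. The median log2 change was 0.18 over the members and 0.01 over all genes. The numbers of higher and lower members depended on the scaling. With library totals alone, which moved the median of all genes to -0.30, 13 members were higher and 17 lower and their median was -0.13. Under that scaling 20.8% of all genes were higher (3421) and 42.1% lower (6905), so the share of lower members (42.5%) was near that of all genes. The change of scaling moves all genes by nearly the same amount. Relative to the median of all genes, the members' median was therefore 0.17 under both scalings, which is not a separate test.

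**Figure D1:**
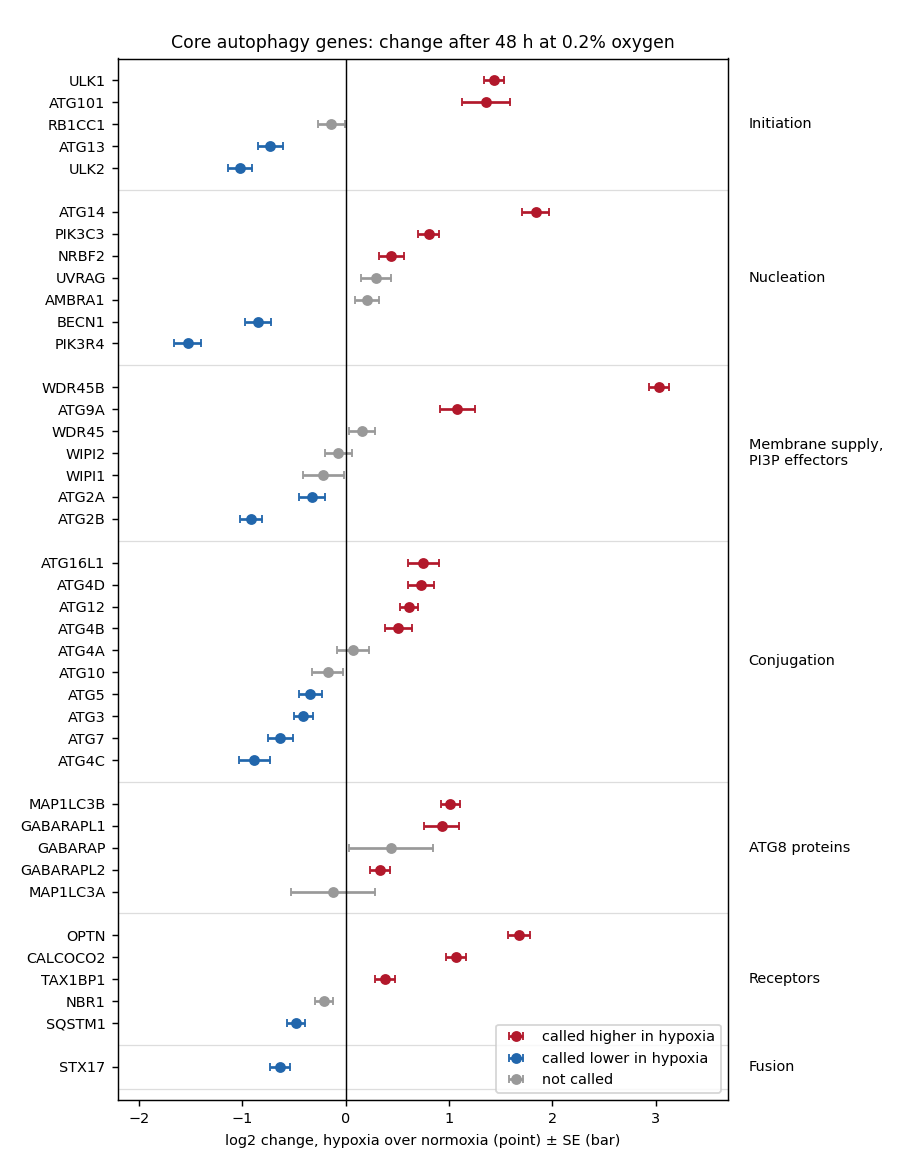
The log2 change of each of the 40 genes (hypoxia over normoxia, point) with its standard error (bar), grouped by role and coloured by call. WDR45B stands apart at 3.03, PIK3R4 is the lowest at -1.53, and rises and falls share every group with more than 1 gene except the ATG8 proteins, where 3 rose and 0 fell.

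Promoter letters were compared because members of the same complex moved apart, and the windows of 2 members that rose (ATG14 and ULK1) and of PIK3R4, the member with the deepest fall, are shown. Each is the 250 bases before the RefSeq gene start, 5′ to 3′ on the gene's strand, GRCh38.p14; capitals mark ACGTG or GCGTG on either strand, the core letters of the hypoxia response element.
ATG14, chr14:55411831-55412080, minus strand: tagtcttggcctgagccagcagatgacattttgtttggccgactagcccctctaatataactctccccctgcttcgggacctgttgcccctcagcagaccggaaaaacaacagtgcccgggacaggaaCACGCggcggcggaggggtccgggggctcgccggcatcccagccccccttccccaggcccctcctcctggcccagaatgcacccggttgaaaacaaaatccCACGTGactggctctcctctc
ULK1, chr12:131894372-131894621, plus strand: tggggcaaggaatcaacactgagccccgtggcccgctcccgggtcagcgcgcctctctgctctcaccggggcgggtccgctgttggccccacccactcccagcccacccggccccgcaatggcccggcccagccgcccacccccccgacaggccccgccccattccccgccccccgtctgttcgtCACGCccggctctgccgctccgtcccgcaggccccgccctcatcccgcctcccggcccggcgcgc
PIK3R4, chr3:130746830-130747079, minus strand: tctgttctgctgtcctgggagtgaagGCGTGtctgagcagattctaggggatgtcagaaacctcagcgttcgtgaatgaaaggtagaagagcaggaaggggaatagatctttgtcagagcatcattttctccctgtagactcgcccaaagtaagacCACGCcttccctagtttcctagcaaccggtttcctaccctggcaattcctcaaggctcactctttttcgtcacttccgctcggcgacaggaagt
The ATG14 window also holds CACGTG, which contains ACGTG on both strands. Each of the windows shown has at least 1 match, whether the gene rose or fell, but not every member has one. The RefSeq table, whose windows run from 250 bases before to 50 after the start, held 43 windows for 34 members; RB1CC1, UVRAG, WDR45B, ATG4D, MAP1LC3A and STX17 were not matched. At least 1 of the 2 core motifs was found for 11 of 15 higher members, 8 of 11 lower members and 6 of 8 members not called. The higher members without a match were OPTN (log2 change 1.68, above ULK1 at 1.44), GABARAPL1, ATG16L1 and ATG4B. The lower members without a match were ATG2B, BECN1 and SQSTM1. Counted by window, 62.8% of the members' windows and 48.4% of all 35116 windows in the table held 1. TCACGTGA, the core of the CLEAR motif bound by TFEB, which contains CACGTG, was in 2 of the 43 member windows (4.65%), 1 of a higher and 1 of a lower member, and in 0.98% of all windows. Base composition was not matched, and the matches describe letters, not bound sites.

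In the ULK complex, the 2 kinase paralogues moved in opposite directions. ULK1 (ENSG00000177169, GRCh38 chromosome 12, 131894651 to 131923167), the kinase inhibited by mTORC1 and activated by AMPK, had 72.9, 78.9 and 72.3 CPM in the hypoxia libraries, against 26.6, 28.4 and 27.8 CPM in the normoxia libraries. Every hypoxia library lay above every normoxia library, and the log2 change was 1.44 ± 0.10 (SE, n = 3 per group; edgeR adjusted p = 7.47e-07). ULK2 (ENSG00000083290, chromosome 17, 19770829 to 19867936), the closely related kinase, had 20.5, 22.2 and 25.5 CPM in hypoxia, against 47.6, 46.0 and 45.4 CPM in normoxia. The groups were again apart, at a log2 change of -1.02 ± 0.12 (edgeR adjusted p = 2.74e-05). Scaled by exon length, ULK1 made up 82.2%, 82.1% and 78.6% of the summed ULK1 and ULK2 level in hypoxia, against 42.0%, 44.4% and 44.2% in normoxia. ULK1 was the larger part in every hypoxia library and the smaller part in every normoxia library. The difference of 37.4 percentage points had a two-sided exact permutation p of 0.1, the smallest that 3 against 3 libraries can give; 11 such shares were tested, and the Benjamini-Hochberg adjusted p was 0.138.

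Of the scaffold subunits, ATG101 rose, ATG13 fell and RB1CC1 was not called. ATG101 (ENSG00000123395, chromosome 12, 52069246 to 52077494), which stabilizes ATG13, had 6.43, 6.01 and 8.61 CPM in hypoxia, against 2.71, 3.00 and 2.57 CPM in normoxia. Its log2 change was 1.36 ± 0.23 (edgeR adjusted p = 0.00045), and an antisense gene overlaps 19.2% of its exon bases. ATG13, the adaptor that joins the kinase to its scaffold, averaged 29.8 ± 3.34 CPM in hypoxia and 49.4 ± 2.73 CPM in normoxia (SD, n = 3), 1.66-fold lower. RB1CC1 (FIP200), the large scaffold of the complex, had 116, 140.2 and 168 CPM in hypoxia, against 147, 169.5 and 152 CPM in normoxia, and these ranges overlapped (edgeR adjusted p = 0.37). Without hypoxia replicate 3, the highest of the hypoxia libraries, RB1CC1 passed as lower at a log2 change of -0.31. It also passed as lower with library totals alone (-0.45). The 5 genes together summed to 242 to 304 CPM in hypoxia and 273 to 299 CPM in normoxia, with 2 members higher and 2 lower, against 31.2% and 31.0% of all genes (2 and 3 with library totals alone, against 20.8% and 42.1%), and a median log2 change of -0.14.

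Subunits of the class III phosphatidylinositol 3-kinase complex moved in opposite directions. ATG14 (ENSG00000126775, chromosome 14, 55366392 to 55411858), the subunit that directs the complex to autophagy, had 76.1, 75.8 and 95.4 CPM in hypoxia, against 22.1, 25.7 and 21.4 CPM in normoxia. All hypoxia libraries lay far above the normoxia libraries, with a log2 change of 1.84 ± 0.13 (edgeR adjusted p = 8.13e-07). PIK3C3 (VPS34; ENSG00000078142, chromosome 18, 41955206 to 42087830), the catalytic lipid kinase, had 78.1, 92.0 and 91.0 CPM in hypoxia, against 49.4, 51.5 and 48.6 CPM in normoxia. It rose 1.75-fold (edgeR adjusted p = 5.14e-05).

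PIK3R4 (VPS15; ENSG00000196455, chromosome 3, 130678935 to 130746829), the pseudokinase that holds VPS34, had 11.4, 11.0 and 12.8 CPM in hypoxia, against 35.7, 34.9 and 31.6 CPM in normoxia. Its log2 change of -1.53 ± 0.13 was the lowest among the 40 genes (edgeR adjusted p = 2.95e-06). BECN1 (beclin 1; ENSG00000126581, chromosome 17, 42810134 to 42833350), the scaffold that BCL2 can sequester, had 16.9, 18.7 and 17.6 CPM in hypoxia, against 28.9, 31.9 and 35.0 CPM in normoxia. BECN1 was 1.80-fold lower in hypoxia (edgeR adjusted p = 0.000171). BECN1 shares 12.4% of its exon bases with CNTD1 and 4.68% with PSME3, both on the opposite strand and both lower in hypoxia, and the strand setting of the counting is not given in the sources used here.

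Of the remaining nucleation genes, NRBF2 rose and UVRAG and AMBRA1 were not called. NRBF2, which promotes pairing of the complex, averaged 35.7 ± 3.09 CPM in hypoxia and 26.3 ± 1.62 CPM in normoxia and rose 1.36-fold (edgeR adjusted p = 0.007), a call lost with library totals alone. UVRAG, which takes the place of ATG14 in the endosomal form of the complex, averaged 31.0 ± 5.46 CPM in hypoxia and 25.3 ± 1.12 CPM in normoxia (edgeR adjusted p = 0.0927), and passed as higher without hypoxia replicate 1 (0.0175). AMBRA1, a regulator of beclin 1, averaged 30.3 ± 2.04 CPM in hypoxia and 26.3 ± 2.16 CPM in normoxia (edgeR adjusted p = 0.156). In a ratio chosen after these values were seen, and so given without a test, ATG14 made up 79.4%, 74.5% and 77.2% of the length-scaled sum of ATG14 and UVRAG in hypoxia, against 53.3%, 54.9% and 51.8% in normoxia. The length-scaled ATG14 level was 5.92 ± 0.867 times that of BECN1 in hypoxia and 0.924 ± 0.129 times in normoxia (SD, n = 3). Over the 7 nucleation genes, 3 rose and 2 fell, against 31.2% and 31.0% of all genes, or 2 and 2 with library totals alone, against 20.8% and 42.1%, and the median log2 change was 0.30, or -0.010 with library totals alone.

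**Figure D2:**
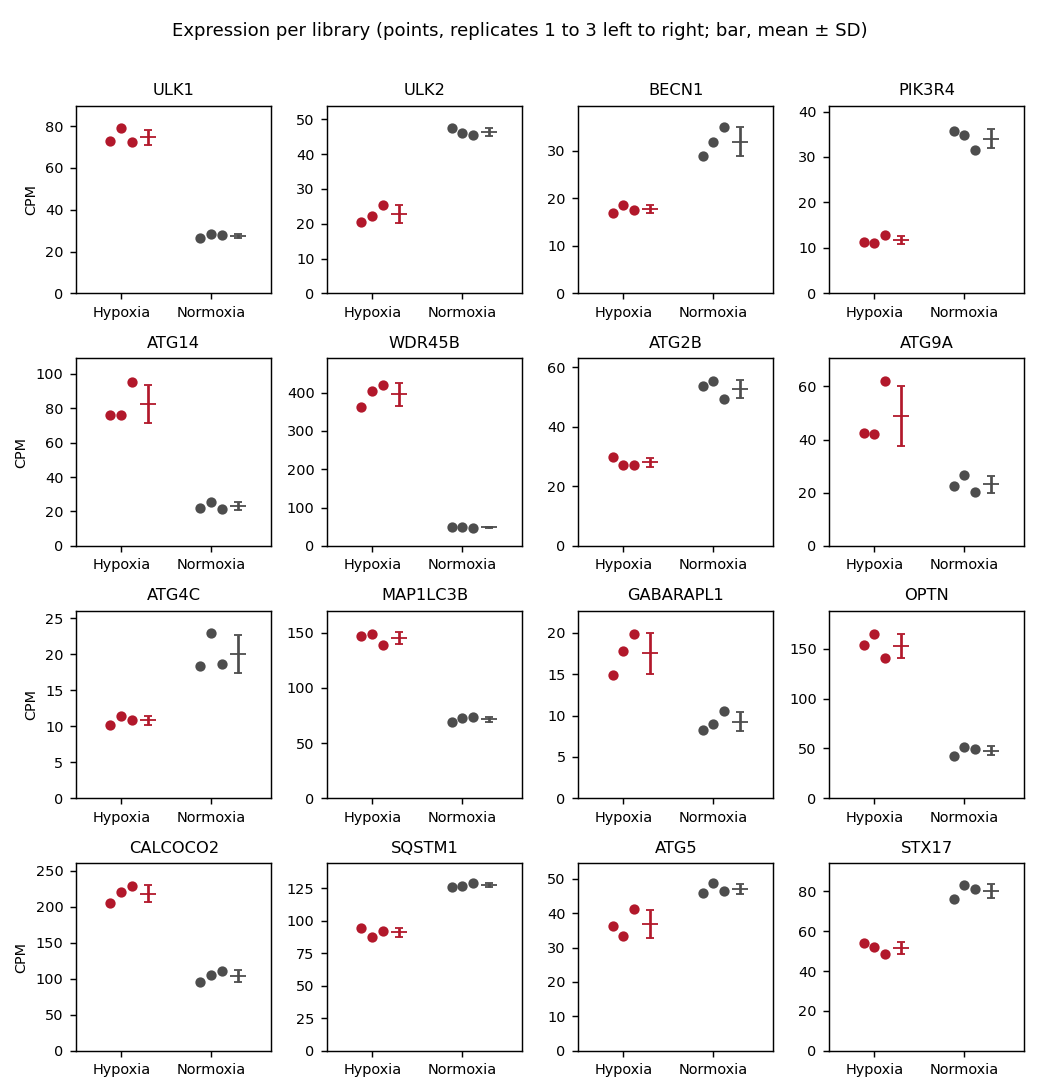
CPM in each library for 16 genes, with the hypoxia libraries left of the normoxia libraries and the mean ± SD (n = 3) beside each group; each vertical axis starts at 0. ATG14 sits at 75.8 to 95.4 CPM in hypoxia and 21.4 to 25.7 CPM in normoxia, whereas PIK3R4 of the same complex sits at 11.0 to 12.8 CPM in hypoxia and 31.6 to 35.7 CPM in normoxia.

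Among the 7 genes for membrane supply and PI3P reading, WDR45B and ATG9A rose and ATG2A and ATG2B fell (2 and 2, against 31.2% and 31.0% of all genes), and with library totals alone 2 rose and 4 fell, against 20.8% and 42.1%. WDR45B (ENSG00000141580, chromosome 17, 82614562 to 82648553) had 361, 405 and 419.6 CPM in hypoxia, against 49.5, 49.5 and 45.9 CPM in normoxia. The lowest hypoxia library was thus several times the highest normoxia library, and the log2 change was 3.03 ± 0.10 (edgeR adjusted p = 6.14e-09). Its log2 change stayed between 2.72 and 3.08 under all 13 alternative settings. The neighbour FOXK2, which overlaps 1.5% of WDR45B's exon bases on the opposite strand, had a log2 change of 0.02 and was not called. WDR45 (WIPI4), its paralogue and the X-linked gene mutated in a neurodegeneration with iron accumulation, averaged 28.2 ± 2.87 CPM in hypoxia and 25.3 ± 1.77 CPM in normoxia (edgeR adjusted p = 0.305). PRAF2, at a mean of 21.1 CPM, overlaps 13.9% of the WDR45 exon bases on the same strand, so the WDR45 counts and share are uncertain. PRAF2 was higher in hypoxia (log2 change 1.27). WDR45 made up 5.37%, 4.11% and 3.93% of the length-scaled sum of WDR45 and WDR45B in hypoxia, against 23.7%, 26.3% and 26.2% in normoxia (exact permutation p = 0.1, adjusted p = 0.138).

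ATG9A (ENSG00000198925, chromosome 2, 219219380 to 219229717), a lipid scramblase carried on vesicles to the forming membrane, had 42.4, 42.2 and 62.0 CPM in hypoxia, against 22.6, 26.7 and 20.4 CPM in normoxia. It rose 2.11-fold (edgeR adjusted p = 0.000282), with hypoxia replicate 3 above the other hypoxia libraries. A second protein-coding annotation on the same strand covers 38.8% of its exon bases, which makes its count uncertain. ATG2B (ENSG00000066739, chromosome 14, 96279202 to 96363870), a bridge-like lipid transfer protein, had 29.8, 27.2 and 27.1 CPM in hypoxia, against 53.7, 55.3 and 49.5 CPM in normoxia. It was 1.88-fold lower (edgeR adjusted p = 3.04e-05).

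ATG2A, the other lipid transfer protein, averaged 25.6 ± 3.29 CPM in hypoxia and 32.0 ± 0.644 CPM in normoxia, 1.26-fold lower (edgeR adjusted p = 0.0396). Leaving out hypoxia replicate 1 (adjusted p = 0.0682) or normoxia replicate 1 (0.0910), 2 (0.0701) or 3 (0.0725) ended this call. The share of ATG2A in the length-scaled sum of ATG2A and ATG2B was 62.9% ± 3.27 in hypoxia and 53.2% ± 1.62 in normoxia (exact permutation p = 0.1, adjusted p = 0.138). WIPI2, the PI3P reader that recruits ATG16L1, had 66.3, 73.8 and 96.0 CPM in hypoxia, against 85.4, 78.8 and 84.5 CPM in normoxia, and the groups overlapped (edgeR adjusted p = 0.656). WIPI1, another PI3P reader, had 17.3, 12.7 and 9.51 CPM in hypoxia, against 14.7, 15.5 and 15.2 CPM in normoxia (edgeR adjusted p = 0.37). The hypoxia libraries thus varied more than the normoxia libraries for both WIPI genes. WIPI2 passed as lower without hypoxia replicate 3 (log2 change -0.27), and WIPI1 without hypoxia replicate 1 (-0.47). With library totals alone, WIPI2 (-0.38) and WIPI1 (-0.53) also passed as lower. ARSG, on the opposite strand, overlaps 24.3% of the WIPI1 exon bases and was lower in hypoxia. The 7 genes of the group summed to 618 ± 44.8 CPM in hypoxia and 279.7 ± 6.19 CPM in normoxia, or to 223 ± 18.2 CPM in hypoxia and 231 ± 4.14 CPM in normoxia with WDR45B left out, and their median log2 change was -0.071.

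In the conjugation system 4 of 10 genes were higher and 4 lower, against 31.2% and 31.0% of all genes (3 and 5 with library totals alone, against 20.8% and 42.1%), 0 of them by 2-fold, and the median log2 change was -0.053. The rises included parts of the ATG12-ATG5-ATG16L1 complex, which places ATG8 proteins on the membrane. ATG16L1 (ENSG00000085978, chromosome 2, 233210051 to 233295674), which binds WIPI2, had 17.5, 17.8 and 22.1 CPM in hypoxia, against 11.98, 10.7 and 11.6 CPM in normoxia. It rose 1.68-fold (edgeR adjusted p = 0.00122). ATG12, the ubiquitin-like protein joined to ATG5, averaged 129 ± 2.49 CPM in hypoxia and 84.6 ± 3.03 CPM in normoxia, 1.53-fold higher (edgeR adjusted p = 0.00012). AP3S1, on the opposite strand at a mean of 183 CPM, overlaps 4.25% of the ATG12 exon bases and was also higher in hypoxia (log2 change 1.07). ATG5 (ENSG00000057663, chromosome 6, 106045423 to 106325791) had 36.4, 33.2 and 41.3 CPM in hypoxia, against 45.9, 48.7 and 46.4 CPM in normoxia. It was 1.27-fold lower (edgeR adjusted p = 0.0209), a call that did not hold when hypoxia replicate 1 (adjusted p = 0.0502), hypoxia replicate 2 (0.0781) or normoxia replicate 2 (0.0659) was left out.

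The enzymes that load the conjugates were lower or not called. ATG7, the E1-like activating enzyme, averaged 17.7 ± 0.707 CPM in hypoxia and 27.4 ± 0.613 CPM in normoxia, 1.55-fold lower (edgeR adjusted p = 0.000827). VGLL4, on the opposite strand, overlaps 18.1% of the ATG7 exon bases and was higher in hypoxia. ATG3, the E2-like enzyme for ATG8 proteins, averaged 57.3 ± 2.34 CPM in hypoxia and 76.0 ± 3.92 CPM in normoxia, 1.33-fold lower (edgeR adjusted p = 0.0033). ATG10, the E2-like enzyme for ATG12, averaged 12.98 ± 1.82 CPM in hypoxia and 14.6 ± 0.858 CPM in normoxia (edgeR adjusted p = 0.343). With library totals alone ATG10 passed as lower (log2 change -0.48, edgeR adjusted p = 0.0148). RPS23, on the opposite strand at a mean of 520 CPM, overlaps 6.86% of the ATG10 exon bases and was higher in hypoxia (log2 change 0.68).

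The ATG4 proteases, which trim ATG8 proteins before conjugation and release them afterwards, changed unequally. ATG4C (ENSG00000125703, chromosome 1, 62784135 to 62865513) had 10.2, 11.4 and 10.8 CPM in hypoxia, against 18.4, 23.0 and 18.7 CPM in normoxia, and was 1.85-fold lower (edgeR adjusted p = 0.00042). ATG4D averaged 24.1 ± 1.42 CPM in hypoxia and 14.5 ± 1.02 CPM in normoxia, 1.66-fold higher (edgeR adjusted p = 0.000594). KRI1, on the opposite strand, overlaps 15% of the ATG4D exon bases and was not called (log2 change -0.29). ATG4B, the main LC3 protease, averaged 27.8 ± 2.63 CPM in hypoxia and 19.5 ± 1.5 CPM in normoxia, 1.43-fold higher (edgeR adjusted p = 0.00533), a call lost with library totals alone (0.210). THAP4, on the opposite strand at a mean of 87.0 CPM, overlaps 3.57% of the ATG4B exon bases and was also higher (log2 change 0.60). ATG4A averaged 11.9 ± 1.42 CPM in hypoxia and 11.4 ± 0.714 CPM in normoxia (edgeR adjusted p = 0.721). As shares of the length-scaled sum of the 4 proteases, ATG4D held 47.4% ± 2.69 in hypoxia and 32.5% ± 0.592 in normoxia, and ATG4C held 15.6% ± 1.11 in hypoxia and 32.7% ± 2.55 in normoxia (exact permutation p = 0.1 and adjusted p = 0.138 for each). ATG4D and ATG4C were thus nearly level in normoxia and well apart in every hypoxia library.

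**Figure D3:**
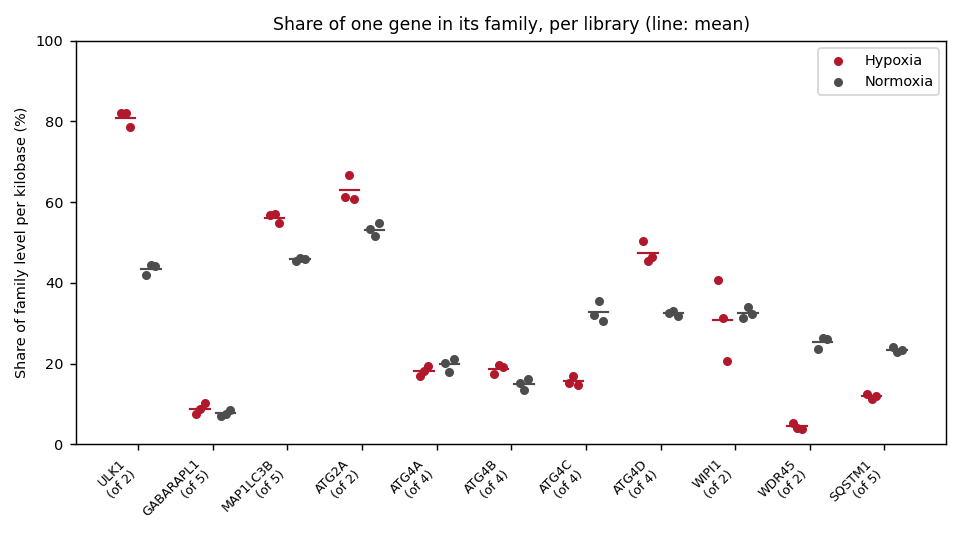
Share of a gene in the length-scaled summed level of its family (vertical axis, percent) in each hypoxia and normoxia library, with the mean as a line; the number of genes in the family is in brackets. ULK1 lies at 78.6% to 82.2% in hypoxia and 42.0% to 44.4% in normoxia, while GABARAPL1, ATG4A and WIPI1 overlap between the groups.

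In the ATG8 family 3 of 5 genes rose and 0 fell, against 31.2% and 31.0% of all genes, or 2 and 0 with library totals alone, against 20.8% and 42.1%, and the median log2 change was 0.44. MAP1LC3B (LC3B; ENSG00000140941, chromosome 16, 87383995 to 87404779), whose protein is the most used marker of autophagosomes, had 147, 149 and 139 CPM in hypoxia, against 69.3, 72.5 and 73.4 CPM in normoxia. It rose 2.02-fold (edgeR adjusted p = 3.49e-06) without overlap between the groups. Its near-identical copy MAP1LC3B2 was at 2.55 ± 0.569 CPM in hypoxia and 1.18 ± 0.0924 CPM in normoxia, and reads of the copies may be exchanged. GABARAPL1 (ENSG00000139112, chromosome 12, 10212458 to 10223130) had 14.9, 17.8 and 19.8 CPM in hypoxia, against 8.21, 9.01 and 10.5 CPM in normoxia, and rose 1.90-fold (edgeR adjusted p = 0.000655). GABARAPL2 averaged 48.8 ± 0.993 CPM in hypoxia and 38.7 ± 0.0203 CPM in normoxia, 1.26-fold higher (edgeR adjusted p = 0.0115), a call lost with library totals alone (0.878) and without normoxia replicate 1 (0.0579) or 2 (0.069).

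MAP1LC3A was at 0.835 ± 0.118 CPM in hypoxia and 0.918 ± 0.228 CPM in normoxia (edgeR adjusted p = 0.812). GABARAP was at 0.997 ± 0.0418 CPM in hypoxia and 0.725 ± 0.230 CPM in normoxia (edgeR adjusted p = 0.373). GABARAP shares 30.5% of its exon bases with another protein-coding annotation on the same strand, and how the counting treated reads in shared exons is not given in the sources used here, so its low count is uncertain. Among the 5 genes, LC3B made up 56.8%, 57.0% and 54.8% of the length-scaled level in hypoxia, against 45.6%, 46.3% and 46.0% in normoxia (exact permutation p = 0.1, adjusted p = 0.138). The share of GABARAPL1 was 8.83% ± 1.34 in hypoxia and 7.69% ± 0.793 in normoxia, with an exact permutation p of 0.3. The summed ATG8 level was 213 ± 4.35 CPM in hypoxia and 121 ± 3.25 CPM in normoxia.

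Of the 5 ubiquitin-binding cargo receptors, 3 rose and SQSTM1 fell, against 31.2% and 31.0% of all genes, while with library totals alone 2 rose and 2 fell, against 20.8% and 42.1%; the median log2 change was 0.38. OPTN (optineurin; ENSG00000123240, chromosome 10, 13099449 to 13138308), a receptor for damaged mitochondria and bacteria, had 153, 164 and 140.5 CPM in hypoxia, against 42.6, 51.3 and 49.3 CPM in normoxia. Its log2 change was 1.68 ± 0.11 (edgeR adjusted p = 4.57e-07). CALCOCO2 (NDP52; ENSG00000136436, chromosome 17, 48830988 to 48866522), which acts in the same clearance of mitochondria and bacteria, had 206, 221 and 229 CPM in hypoxia, against 95.3, 106 and 111 CPM in normoxia. Its log2 change was 1.07 ± 0.10 (edgeR adjusted p = 4.54e-06), and the groups were apart for both receptors. TAX1BP1, which is recruited to ubiquitin condensates, averaged 112 ± 8.36 CPM in hypoxia and 86.0 ± 4.29 CPM in normoxia, 1.30-fold higher (edgeR adjusted p = 0.00493, lost with library totals alone at 0.566).

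SQSTM1 (p62; ENSG00000161011, chromosome 5, 179806398 to 179838078), the receptor that is itself degraded by autophagy, had 94.2, 87.4 and 92.3 CPM in hypoxia, against 126, 127 and 129 CPM in normoxia. It was 1.39-fold lower, with all hypoxia libraries below all normoxia libraries (edgeR adjusted p = 0.000656). MRNIP, on the opposite strand, overlaps 20.7% of the SQSTM1 exon bases and was higher in hypoxia, at a log2 change of 1.68. NBR1, a receptor related to p62, had 163, 164 and 179 CPM in hypoxia, against 189, 197 and 198 CPM in normoxia. The NBR1 groups did not overlap, but its adjusted p was 0.0563 in the edgeR test, and it passed as lower without hypoxia replicate 3 (0.00511). The share of SQSTM1 in the length-scaled sum of the 5 receptors was 12.5%, 11.3% and 11.9% in hypoxia, against 24.2%, 22.9% and 23.3% in normoxia (exact permutation p = 0.1, adjusted p = 0.138).

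STX17 (syntaxin 17; ENSG00000136874, chromosome 9, 99906633 to 99970341), the SNARE protein that fuses the closed autophagosome with the lysosome, had 54.2, 52.1 and 48.5 CPM in hypoxia, against 76.3, 83.3 and 81.0 CPM in normoxia. It was 1.56-fold lower, again without overlap (edgeR adjusted p = 0.000198).

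Length-scaled levels, CPM per kilobase of all annotated exons, put the members in a different order in the 2 conditions. In hypoxia WDR45B was first at 111.5 ± 8.57 CPM per kb, followed by OPTN (29.7 ± 2.33), LC3B (27.3 ± 1.02) and CALCOCO2 (26.2 ± 1.41), and the libraries of these 3 overlapped in turn. In normoxia NBR1 was first at 23.1 ± 0.573 CPM per kb, followed by RB1CC1 (20.5 ± 1.58), STX17 (16.9 ± 0.747) and SQSTM1 (16.6 ± 0.214), of which STX17 and SQSTM1 overlapped between libraries, with WDR45B at rank 6. MAP1LC3A and GABARAP were the lowest in both. Exon length counts every annotated isoform, so levels of genes with long rare exons are understated. The median coefficient of variation between replicates was 8.15% in hypoxia and 5.52% in normoxia over the 37 members with a mean of at least 10 CPM.

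**Figure D4:**
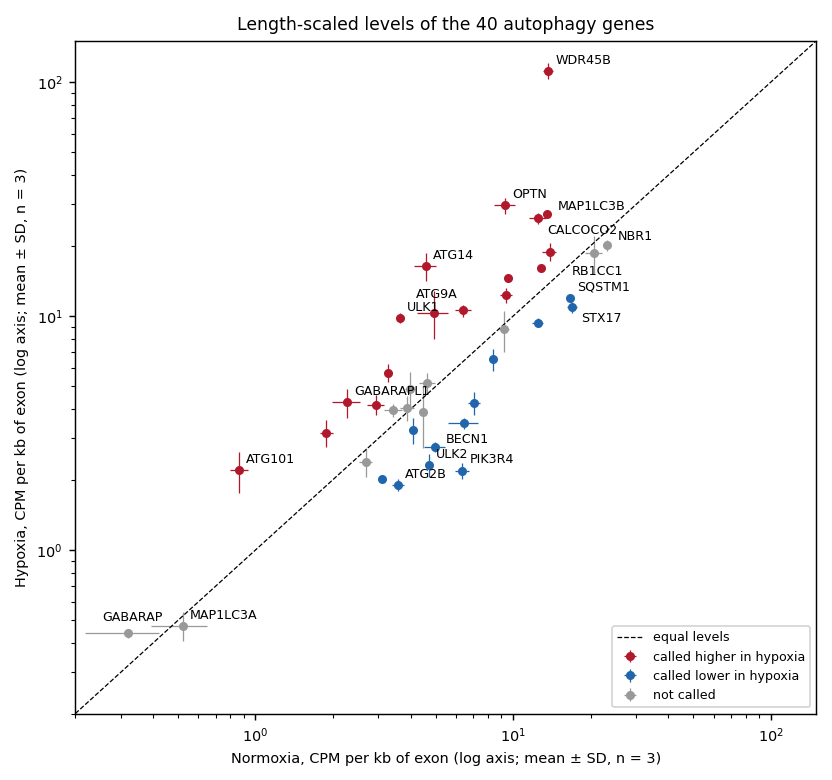
Mean length-scaled level of each of the 40 genes in hypoxia (vertical) against normoxia (horizontal), with SD bars (n = 3) on log axes and the line of equal levels. WDR45B lies furthest above the line at 111.5 CPM per kb in hypoxia and 13.6 CPM per kb in normoxia, and PIK3R4 lies below it at 2.18 CPM per kb in hypoxia and 6.34 CPM per kb in normoxia.

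Upstream of ULK1, signalling genes of the mTORC1 and AMPK pathways had 10 of 20 higher and 4 lower, against 31.2% and 31.0% of all genes, with a median log2 change of 0.43. With library totals alone 6 were higher and 6 lower, against 20.8% and 42.1%. MTOR, the kinase that restrains ULK1, had 5.69, 7.24 and 9.03 CPM in hypoxia, against 27.1, 26.7 and 29.4 CPM in normoxia, 3.73-fold lower (edgeR adjusted p = 4.86e-06). Its partner RPTOR, which presents substrates to mTORC1, rose 2.25-fold to 198 ± 9.96 CPM in hypoxia, against 87.8 ± 2.63 CPM in normoxia. DDIT4 (REDD1), a stress-induced inhibitor of mTORC1, rose 12.6-fold to 1197 ± 38.5 CPM in hypoxia, against 94.7 ± 4.86 CPM in normoxia. PRKAB2, an AMPK regulatory subunit, rose 3.53-fold, while CAMKK2, a kinase that activates AMPK, was 2.20-fold lower and the mTOR inhibitor DEPTOR was 2.20-fold lower.

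Transcription factors of autophagy genes had 6 of 10 tested higher and 1 lower, against 31.2% and 31.0% of all genes, with a median log2 change of 1.43. With library totals alone 6 were higher and 2 lower, against 20.8% and 42.1%. TFEB, the regulator of lysosome and autophagy genes, had 15.2, 17.7 and 14.3 CPM in hypoxia, against 3.91, 4.35 and 4.55 CPM in normoxia, a log2 change of 1.88 ± 0.17 (edgeR adjusted p = 5.45e-06). ATF4, the effector of the integrated stress response, rose 5.55-fold to 1383 ± 108 CPM in hypoxia, against 249 ± 57.5 CPM in normoxia. Its target DDIT3 (CHOP) was at 32.4 ± 5.68 CPM in hypoxia and 6.21 ± 0.620 CPM in normoxia. ZKSCAN3, described as a repressor of autophagy genes, was 3.39-fold lower.

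Organelle receptors had 10 of 19 higher and 2 lower, against 31.2% and 31.0% of all genes, with a median log2 change of 0.43. The mitophagy receptor BNIP3 was at 2423 ± 92.9 CPM in hypoxia and 129 ± 21.3 CPM in normoxia, and its relative BNIP3L (NIX) was at 1404 ± 96.8 CPM in hypoxia and 168 ± 10.3 CPM in normoxia. STBD1, a glycogen-binding receptor, rose by 3.49 ± 0.39 on the log2 scale to 7.19 ± 3.08 CPM in hypoxia, against 0.641 ± 0.134 CPM in normoxia. FUNDC1, a mitophagy receptor of the outer membrane, fell by 0.67 on the log2 scale and the ER-phagy receptor ATL3 was 1.29-fold lower. With library totals alone 7 organelle receptors were higher and 7 lower, against 20.8% and 42.1% of all genes.

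Fusion factors beside STX17 had 2 of 13 tested higher and 4 lower, against 31.2% and 31.0% of all genes, with a median log2 change of -0.16; the lower share was near that of all genes. The SNARE YKT6, which also acts in autophagosome fusion, rose 1.72-fold and the adaptor PLEKHM1 1.47-fold, while TECPR1, a tether of autophagosomes to lysosomes, was 2.39-fold lower and the HOPS subunits VPS33A and VPS18 were 2.11-fold and 1.76-fold lower in hypoxia. With library totals alone 1 was higher and 10 were lower, against 20.8% and 42.1% of all genes, and the PLEKHM1 call was lost (edgeR adjusted p = 0.0984).

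Other paralogues and membrane factors had 4 of 12 tested higher, near the 31.2% of all genes, and 2 lower, against 31.0%, or 2 and 6 with library totals alone, against 20.8% and 42.1%, and a median log2 change of -0.066. BCL2, which binds beclin 1, was at 4.46 ± 0.387 CPM in hypoxia and 36.8 ± 1.40 CPM in normoxia, 8.16-fold lower (edgeR adjusted p = 5.17e-08). VMP1, a lipid scramblase of the endoplasmic reticulum, was 1.71-fold lower. ATG16L2, a paralogue of ATG16L1, rose 1.80-fold and TBK1, a cytosolic kinase that phosphorylates optineurin, rose 1.58-fold.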

How the data were processed

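RNA-seq reads per gene were compared between hypoxia (3 libraries) and normoxia (3 libraries), grouped by sample title. The deposited table holds raw counts, by Ensembl gene. Build GRCh38.p13 and the tools HISAT2 2.1.0, featureCounts 2.0.1, fastp 0.20.1 and DESeq2 1.37.5 were used, per the submitters' processing notes; strand setting and annotation release are not given in these sources. A line naming no gene, 0.00243% of counts, was left out. A second deposited table, of normalized values, was not used because its cells run together.

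Symbols came from a gene name table, and coordinates and exon lengths from GENCODE release 29 (GRCh38). In that annotation 23 members share exon bases with another gene, 3 of them on the same strand, and the text does not name every overlap. Counts were tested with edgeR 4.0.16 in R 4.3.3: filterByExpr (minimum count 10, minimum total 15), TMM, the robust quasi-likelihood F test and Benjamini-Hochberg adjustment over 16411 genes, threshold 0.05. The SE was computed as the size of the log2 change over the root of F. Group means are given ± SD over 3 libraries. Family shares were tested over libraries by a two-sided exact permutation test. Replicates were compared by chi-square and no pair was close enough to be a repeated library (5.75 to 39.3 per gene). The code was tested on simulated counts. Alternatives were RLE, library totals, DESeq2 1.42.0, limma-voom (limma 3.58.1), no filter, CPM of 1 or more in 3 libraries, a replicate block and leaving out each library.

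Members and lists were chosen with earlier results of these data known. Values per library were set for called members with a log2 change of 0.8 or more in size and for 10 fixed genes; those of RB1CC1, WIPI1, WIPI2 and NBR1 were added after their values were seen. From each pathway list, up to 3 called rises and 3 called falls of mean CPM 1 or more were named, with MTOR, DDIT4 and TFEB.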

Additional observations from a re-analysis of the deposited data

How the results depend on the processing

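Of the 29 called members, 23 kept their call and direction under all 13 alternative settings, 6 lost it in at least 1, and 0 changed sign; 6 members that were not called passed in at least 1. Calls were lost for NRBF2, ATG4B, GABARAPL2 and TAX1BP1 with library totals alone, for NRBF2, GABARAPL2 and TAX1BP1 with no filter, for ATG2A with a replicate block, and for ATG2A, ATG5 and GABARAPL2 without single libraries. With library totals alone RB1CC1, WIPI1, WIPI2, ATG10 and NBR1 passed as lower, as did NBR1 with no filter. Without single libraries RB1CC1, WIPI1, WIPI2 and NBR1 passed as lower and UVRAG as higher. Log2 changes below the threshold that reversed were, with library totals alone, UVRAG (-0.010), AMBRA1 (-0.10), WDR45 (-0.16) and ATG4A (-0.24), with no filter, ATG4A (-0.050), and, over the fits that left out single libraries, ATG4A (-0.065 to 0.13, lowest without hypoxia replicate 3), WIPI2 (-0.27 to 0.026, highest without hypoxia replicate 1) and MAP1LC3A (-0.34 to 0.022, highest without normoxia replicate 3). Library totals alone moved the median of all genes to -0.30, against 0.01 in the reported fit; the cause of the other reversals was not tested. With no filter 14 members were higher and 13 lower, where 5051 (12.5%) and 6288 (15.6%) of 40297 genes were. Leaving out 1 library at a time gave 16 to 18 higher and 10 to 15 lower members, and 4487 to 5283 higher and 4578 to 5630 lower genes over all. The share of WIPI1 in WIPI1 and WIPI2 differed by -1.62 percentage points, from -6.53 to 3.49 when single libraries were left out, and reversed to 3.49 without hypoxia replicate 3; the other 10 shares kept their direction. Raw counts without length scaling kept the direction of all 11 shares. The labels do not say that a replicate number marks a shared batch or day, and same-numbered libraries correlated at -0.128 to 0.103 in their deviations across genes, so the numbers were not taken as pairs. A replicate block gave 17 higher and 11 lower members and 4862 higher and 4906 lower genes; 1 of 3 hypoxia libraries correlated best with its own number. At about 1 CPM, MAP1LC3A and GABARAP had SEs of 0.41 on the log2 scale, so small changes were not detectable at this depth. The alternatives for the other pathway genes were chosen after seeing the data, and the calls lost there were those of PLEKHM1 and MAP1LC3B2.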
